A study of Mus musculus with 6 samples.

Results

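The genes described here are 10 that macrophages use to sense, take up, carry and export lipid: Trem2, Tyrobp, Gpnmb, Cd36, Msr1, Apoe, Abca1, Abcg1, Pltp and Lpl. They were taken by symbol from a table of gene levels with 15139 rows, and all 10 were present, each as 1 row. TREM2 is a surface receptor that binds lipids and lipoproteins and signals through the adaptor DAP12, the product of Tyrobp. Scavenger receptors such as CD36 and MSR1 bring modified lipoproteins into the cell, lipoprotein lipase and phospholipid transfer protein remodel lipoprotein particles outside it, and the transporters ABCA1 and ABCG1 pass cholesterol out to lipoproteins, in part by way of apolipoprotein E. In macrophages that load lipid, many of these genes are known to be active together.

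Messenger RNA was measured in mouse bone marrow cells grown for 1 week in medium with 10% fetal bovine serum, interleukin 3 at 10 ng/ml and stem cell factor (SCF) at 50 ng/ml, cytokines that favour mast cells and immature myeloid cells. The Dnmt3a knockout (KO) cells were labelled MxCre+v: Dnmt3a-/-, and 2 of the 3 KO samples, replicates 2 and 3, were analysed. The wild-type (WT) cells were labelled MxCre+v: Dnmt3a+/+, with 3 samples analysed. Both groups therefore carry Mx-Cre, an interferon-inducible recombinase that also acts outside the blood. The labels give the KO cells as a knockdown in another field. The sources used here give neither age nor strain, nor how Cre was induced. Levels are in FPKM, a fragment count divided by gene length and by library size, so that genes can be compared with each other within a library.

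Dnmt3a, the de novo DNA methyltransferase that was targeted, had 2.58 and 3.42 FPKM in the KO libraries, against 6.68, 9.99 and 9.04 FPKM in the WT libraries, without overlap. Sex-linked genes gave both KO libraries and WT replicate 1 as male and WT replicates 2 and 3 as female, so that sex was not balanced between the groups. Low values lay near whole fragments more often than if spread evenly. They put the depth at an estimated 14420000 and 23370000 fragments in the KO libraries and 11600000 to 15030000 fragments in the WT libraries. The share near whole fragments was lowest in KO replicate 2, at 51.1%, so its estimate of 23370000 is the least certain. Of 20 markers of macrophages and monocytes, 17 were lower and 1 was higher in KO. Their summed level was 2872 to 3101 FPKM in KO and 6720 to 8653 FPKM in WT. Much of that sum was Lyz2, with 1587 and 1311 FPKM in KO, against 6477, 5178 and 4522.5 FPKM in WT. The 12 neutrophil markers were all lower in KO, with sums of 13670 to 17880 FPKM in KO and 25610 to 35510 FPKM in WT. Most of these sums came from S100a8 and S100a9. Camp, S100a8, S100a9, Ngp, Ltf and Ctsg each lost their call under some alternative analyses. Of 13 mast cell markers 10 were higher in KO, with sums of 28590 to 32750 FPKM in KO and 12160 to 13950 FPKM in WT. Much of these sums was Cpa3, with 19655 and 17551 FPKM in KO, against 7231, 6554 and 7576 FPKM in WT. Cma1, Mcpt4 and Hdc did not pass, and Tpsab1 and Mitf lost their call under some alternative analyses. Of markers of stroma, fat and endothelium, Col1a1, Col1a2, Col3a1, Cxcl12, Adipoq, Cdh5 and Kdr stayed under 1 FPKM in every library. The 2 that were tested went in opposite directions. Pecam1, also a gene of blood cells, had 105 and 114 FPKM in KO, against 68.5, 70.4 and 78.6 FPKM in WT (log2 change 0.59, limma adjusted p = 0.00360). Acta2 had 0.75 and 0.59 FPKM in KO, against 2.38, 2.82 and 1.79 FPKM in WT (-0.99, limma adjusted p = 0.00659). Markers of dendritic cells and MHC class II summed to 155 to 311 FPKM in KO and 1590 to 2170 FPKM in WT. Of this list Flt3, Zbtb46 and Cd209a stayed under 1 FPKM in every library. All 6 tested were lower in KO, namely Cd74, Ciita, Itgax, H2-Ab1, H2-Eb1 and H2-Aa. Itgax is also among the genes of lipid-laden macrophages below. Whether dendritic cells were present was not tested. In bulk RNA, fewer cells of a type and less RNA per cell cannot be told apart, and the part of cell composition in the changes below was not tested.

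Loss of Dnmt3a went with lower levels of most of these lipid genes. Of the 10, 8 fell in KO, namely Pltp, Trem2, Msr1, Lpl, Gpnmb, Abca1, Cd36 and Abcg1, while Tyrobp and Apoe did not pass the test (limma on log2(FPKM + 1), adjusted p under 0.05 over 11365 tested genes). Over all tested genes, 13% were lower in KO by the same rule and 9.08% were higher, 22.1% in all, and the share lower was 6.97% with sex as a covariate. The median log2 change of the 10 genes was -1.19, KO over WT, against -0.04 over all tested genes. In 9 of the 10, both KO libraries lay below every WT library, which held for 30.8% of tested genes, while 20.4% had both KO libraries above every WT library. The same 9 had both KO libraries below WT replicate 1, the WT library of the same sex, which held for 43.8% of tested genes. The number of genes lower in all fell to 944, against 1475, when WT replicate 2 was left out, and 7 of the 10 lipid genes were then lower.

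**Figure D1:**
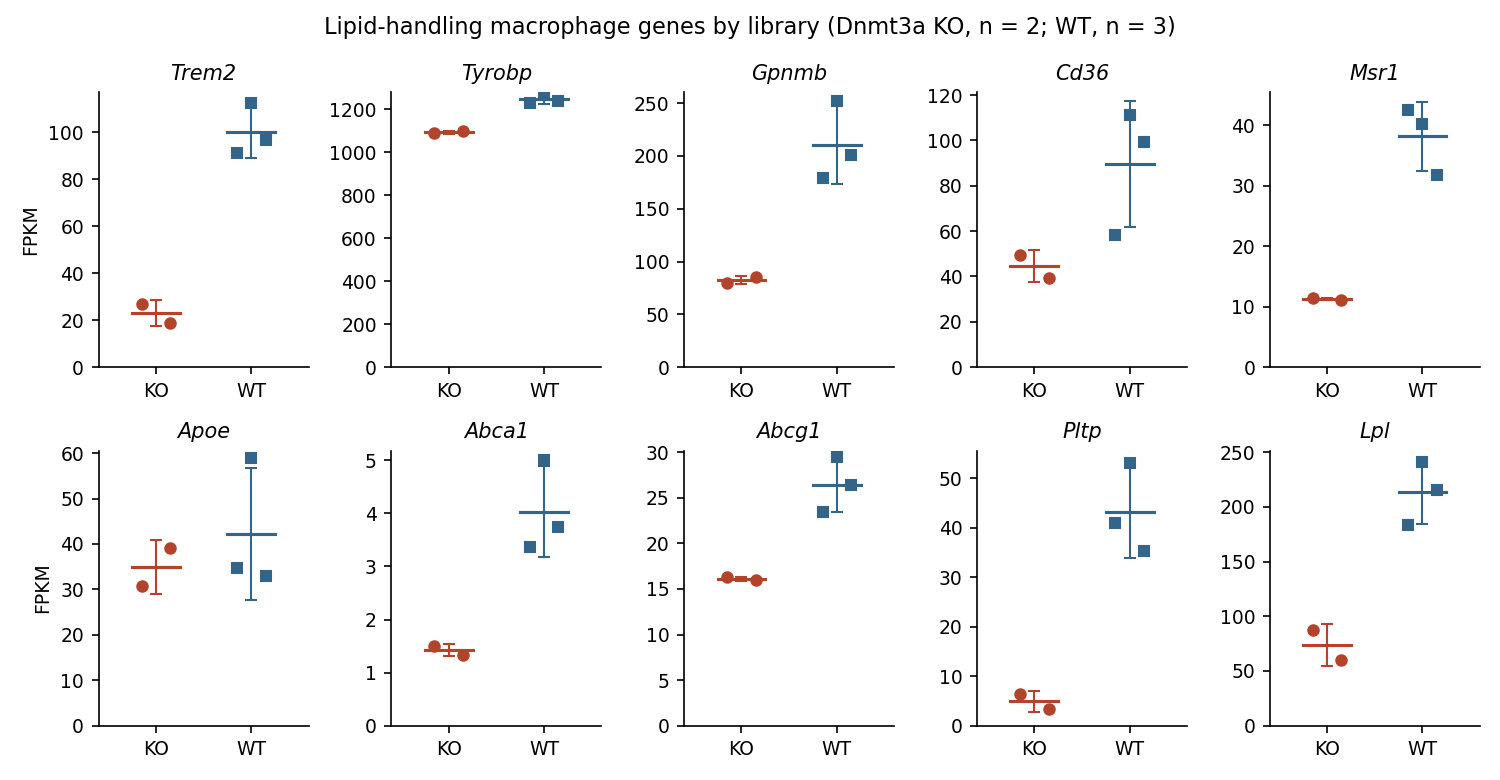
FPKM of the 10 lipid-handling genes in each library, with Dnmt3a KO (circles, n = 2) left of WT (squares, n = 3); each panel has its own axis from 0, bars are group means and whiskers are SD. The groups are apart in every panel but that of Apoe, where the KO libraries at 30.8 and 39.2 FPKM overlap the WT libraries at 33.0 to 59.0 FPKM.

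The WT libraries also differed among themselves. WT replicate 2 was the highest of the WT libraries for 9 of the 10 genes, all but Msr1, while it was the highest for 30% of all tested genes. KO replicate 3 was below KO replicate 2 for 7 of the 10 genes, as it was for 45% of tested genes. The order of the genes by level was led by Tyrobp and closed by Abca1 in all 5 libraries. Trem2 stood above Apoe in every WT library and below it in both KO libraries. Gpnmb and Lpl had similar means, and their order differed between libraries. In KO replicate 3 Gpnmb was at 85.1 FPKM and Lpl at 60.1 FPKM. Gpnmb averaged 82.5 ± 3.61 FPKM in KO and 211 ± 37.3 FPKM in WT, and Lpl 73.6 ± 19.1 FPKM in KO and 213 ± 28.9 FPKM in WT (SD, n = 2 and 3), and in both groups these ranges overlapped.

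**Figure D2:**
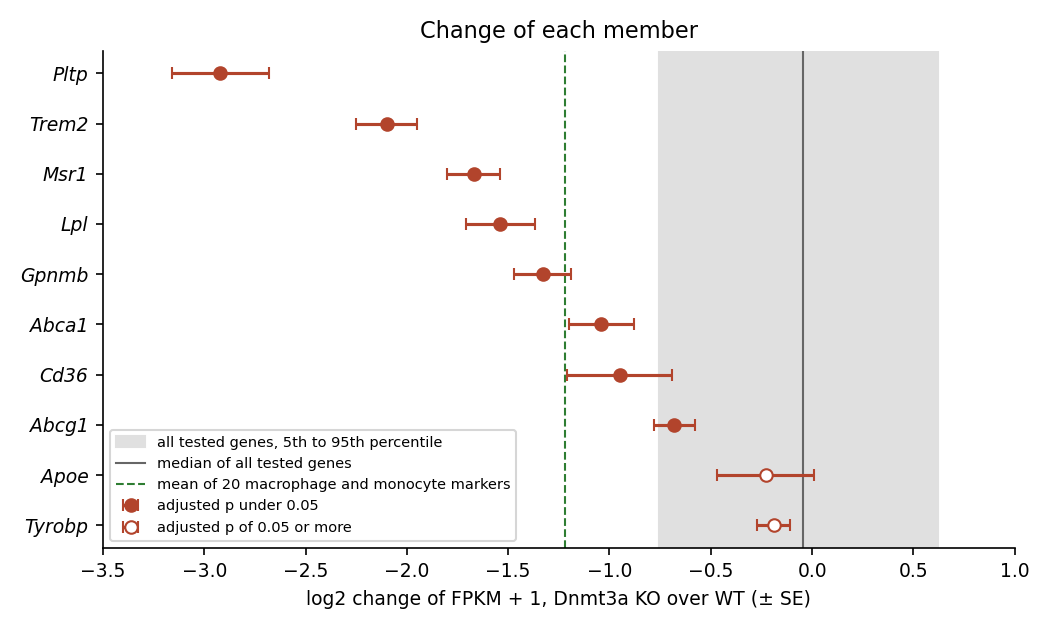
Log2 change of FPKM + 1 for each gene, Dnmt3a KO over WT, with its SE from limma; filled points passed an adjusted p of 0.05, the grey band spans the 5th to 95th percentile of all 11365 tested genes, the grey line marks their median and the dashed line the mean of 20 macrophage and monocyte markers. The 7 changes from Pltp at -2.92 to Cd36 at -0.95 lie beyond the band, Abcg1 at -0.68 lies inside it, and Apoe and Tyrobp lie near 0.

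Dnmt3a adds methyl groups to cytosines in CpG dinucleotides, so the CpG content of the promoters is shown for the genes that carry the contrast: Trem2 and Pltp, the largest falls of the 10, Abca1, which also fell, and Apoe, which did not pass. The sequences are the 250 bases before the annotated start, 5′ to 3′ on the gene's strand, from RefSeq on GRCm38.p6, with each CpG in capitals. No methylation was measured in these samples.

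Trem2, chr17:48346151-48346400, plus strand: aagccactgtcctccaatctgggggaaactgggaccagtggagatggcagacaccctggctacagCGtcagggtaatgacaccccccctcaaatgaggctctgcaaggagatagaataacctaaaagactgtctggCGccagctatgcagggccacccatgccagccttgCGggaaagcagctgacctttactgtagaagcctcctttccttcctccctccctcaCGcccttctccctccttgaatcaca

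Pltp, chr2:164857709-164857958, minus strand: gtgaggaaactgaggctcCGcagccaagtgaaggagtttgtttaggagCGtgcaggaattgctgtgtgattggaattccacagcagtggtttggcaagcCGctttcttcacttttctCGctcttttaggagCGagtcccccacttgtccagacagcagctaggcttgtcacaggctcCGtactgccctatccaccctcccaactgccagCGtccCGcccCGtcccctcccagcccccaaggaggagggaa

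Abca1, chr4:53159896-53160145, minus strand: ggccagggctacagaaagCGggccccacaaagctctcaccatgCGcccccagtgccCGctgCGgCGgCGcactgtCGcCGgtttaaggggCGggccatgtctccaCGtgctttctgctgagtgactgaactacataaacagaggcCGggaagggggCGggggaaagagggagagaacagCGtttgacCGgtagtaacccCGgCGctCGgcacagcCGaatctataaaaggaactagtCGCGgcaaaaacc

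Apoe, chr7:19699189-19699438, minus strand: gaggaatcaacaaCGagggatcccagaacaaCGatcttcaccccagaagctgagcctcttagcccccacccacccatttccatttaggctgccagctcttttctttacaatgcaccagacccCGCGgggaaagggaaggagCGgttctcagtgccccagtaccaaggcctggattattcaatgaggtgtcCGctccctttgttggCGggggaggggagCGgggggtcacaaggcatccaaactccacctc

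Promoter sequences were matched for 6 of the 10 genes, with 8 start sites. The Trem2 window holds 4 CpGs, that of Pltp 9 and that of Apoe 8 at the start site shown, while the Abca1 window holds 20. Cd36 had 3 and Gpnmb 7. Over 32851 windows of the same length for all mouse genes, the median was 6 CpGs, and the middle part of the windows, between the quartiles, spanned 2 to 16. Abca1 lies above that range and the other genes lie within it. The Cd36 window belongs to a start site 52905 bases inside the annotated gene. Apoe has further start sites with 9 and 10 CpGs in their windows.

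**Figure D3:**
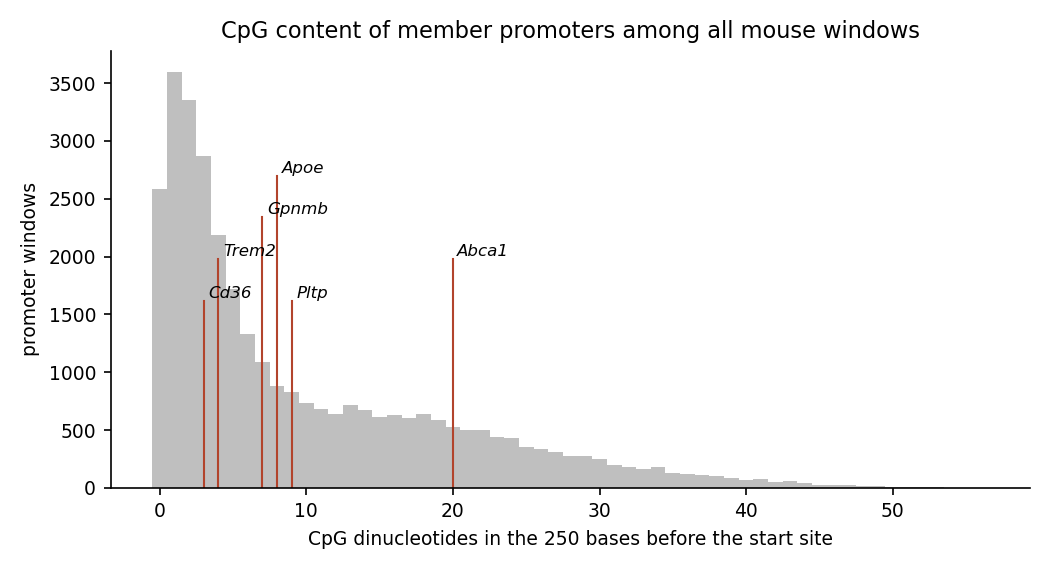
Number of CpG dinucleotides in the 250 bases before the start site, on the horizontal axis, with the number of mouse promoter windows having that count as grey bars; red lines mark 6 lipid-handling genes, each at the start site nearest to the GENCODE gene start. Abca1, at 20 CpGs, stands above the upper quartile of 16, and the other 5 lie between 3 and 9.

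Short motifs were looked for in the same windows on both strands. The letters GAGGAA, the core of sites for the myeloid factor PU.1, occur in the windows of Trem2, Pltp and Apoe, and in 23.3% of all windows. TGANTCA, where N is any letter, is looser than the usual AP-1 motif, which has C or G at N. This looser pattern lies 9 bases before the Trem2 start and occurs in 6.75% of all windows. At Trem2 the letters are TGAATCA, with A at N, so the match is not the usual AP-1 motif. CACGTG, an E-box that MITF and TFE factors can bind, occurs in the Abca1 window and in 6.02% of all windows. AGGTCA, a nuclear receptor half-site, is in the windows of Trem2 and Cd36 and in 14.0% of all windows. The LXR direct repeat was searched only as an exact pair of these half-sites at a fixed spacing, and so overlaps them. This exact string was in 5 of all windows and in none of the 8 of these genes. Repeats with other letters were not looked for, so whether the Abca1 window or any other holds one was not tested. These matches describe letters and not binding.

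Trem2 fell in KO, while its adaptor did not pass the test. Trem2 (gene 83433, chromosome 17, 48346401 to 48354147 on the plus strand, GRCm38) had 26.8 and 19.0 FPKM in KO, against 91.1, 112 and 96.9 FPKM in WT. Both KO libraries lay far below the lowest WT library. The mean was 22.9 ± 5.51 FPKM in KO (SD, n = 2) and 100.2 ± 11.1 FPKM in WT (SD, n = 3), so that the WT mean was 4.37 times that of KO. On the log2 scale Trem2 changed by -2.10 ± 0.15 (SE), with a limma adjusted p of 0.000326. The call held in all 14 alternative analyses, with log2 changes from -2.33 to -1.86.

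Tyrobp (gene 22177, chromosome 7, 30413760 to 30417585, plus strand), which encodes the signalling adaptor DAP12 that TREM2 shares with several other myeloid receptors, was the most abundant of the 10 genes. It had 1087 and 1098 FPKM in KO, against 1229, 1270.0 and 1238 FPKM in WT. The groups did not overlap, but the difference was small, at -0.19 ± 0.08 on the log2 scale (SE, limma adjusted p = 0.155). Within each library there were 40.6 and 57.7 FPKM of Tyrobp for each FPKM of Trem2 in KO, against 13.5, 11.3 and 12.8 in WT. The ratio was higher in both KO libraries than in any WT library.

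Other genes of TREM2 signalling were taken from a list of 22, of which 20 were tested. Of these 11 fell and 2 rose in KO, with a median log2 change of -0.36. The largest falls were in Clec5a, another receptor that pairs with DAP12 (log2 change -1.09 ± 0.08), the exchange factor genes Vav3 (-1.01 ± 0.10) and Vav2 (-1.0 ± 0.13), and Trem3, a DAP12-linked receptor of the mouse (-0.94 ± 0.14), with limma adjusted p between 0.000327 and 0.00380. The risers, named after their values were seen, were Inpp5d (0.44 ± 0.08), the lipid phosphatase SHIP1, and Hcst (0.39 ± 0.11), which encodes DAP10, an adaptor related to DAP12. Inpp5d had an adjusted p of 0.0891 with sex as a covariate. Hcst did not pass without KO replicate 2 (0.135), WT replicate 2 (0.106) or WT replicate 3 (0.120), with sex as a covariate (0.304), without the filter on low genes (0.0579) or without the mean-variance trend (0.0670). Grb2, an adaptor protein of receptor signalling (-0.05), and Adam10, a protease that sheds TREM2 from the surface (0.03), did not pass.

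Both scavenger receptors among the 10 genes were lower in KO, Msr1 more clearly than Cd36. Msr1 (gene 20288, chromosome 8, 39581685 to 39642673, minus strand), the class A receptor for modified low-density lipoprotein, had 11.4 and 11.1 FPKM in KO, against 42.55, 40.2 and 31.8 FPKM in WT. The lowest WT library was well above both KO libraries. Its log2 change was -1.67 ± 0.13 (SE, limma adjusted p = 0.000353), and it held in every alternative analysis.

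Cd36 (gene 12491, chromosome 5, 17781690 to 17888801, minus strand), a receptor for oxidised lipoproteins and long-chain fatty acids, had 49.6 and 39.5 FPKM in KO, against 58.3, 111 and 99.3 FPKM in WT. WT replicate 1 lay closer to the KO libraries than to the other WT libraries. The log2 change was -0.95 ± 0.26 (SE, limma adjusted p = 0.0380). With sex as a covariate, which sets KO against WT replicate 1, it was -0.39 with an adjusted p of 0.178. The call was also lost without KO replicate 2 (0.0692), KO replicate 3 (0.187), WT replicate 2 (0.0901) or WT replicate 3 (0.0986). Of the 8 genes that fell, Cd36 had the largest adjusted p.

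Of 18 other scavenger receptor genes, 14 were tested and 8 fell, with a median log2 change of -0.48. They were led by the mannose receptor gene Mrc1 (-1.77 ± 0.19), Lrp1, a large receptor for lipoprotein remnants and apolipoprotein E (-1.46 ± 0.11), the lysosomal Cd68 (-1.24 ± 0.09) and Scarf1 (-1.15 ± 0.13), with limma adjusted p between 0.000327 and 0.00114. Cd68 and Mrc1 are also among the macrophage markers. Colec12, a collectin with scavenger activity, did not pass (-0.37). It had 4.46 and 4.25 FPKM in KO, against 3.64, 8.10 and 6.88 FPKM in WT, and it passed without WT replicate 1 (log2 change -0.66, adjusted p = 0.0141).

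Gpnmb fell in KO, as did most of a list of MITF and TFE factors and GPNMB partners. Gpnmb (gene 93695, chromosome 6, 49036546 to 49070929, plus strand), a transmembrane glycoprotein of macrophages with lysosomal stress or lipid load, had 80.0 and 85.1 FPKM in KO, against 179, 252 and 201 FPKM in WT. Both KO libraries were below the lowest WT library. The log2 change was -1.33 ± 0.14 (SE, limma adjusted p = 0.000881). Of 13 genes of MITF and TFE factors and GPNMB partners, 12 were tested, 8 fell and 1 rose, with a median of -0.51. Tfec, a member of the MITF and TFE family expressed in macrophages, fell by 1.65 on the log2 scale (SE 0.14) and Tfeb, a master regulator of lysosome genes, by 0.87 (SE 0.09). Sdc4, a heparan sulfate proteoglycan that binds GPNMB, fell by 1.18 (SE 0.15), and these 3 had limma adjusted p between 0.000485 and 0.00178. Atp6v0d2, a proton pump subunit gene, had a log2 change of -1.19 ± 0.30 (adjusted p = 0.0312), which did not pass with sex as a covariate (0.133) or on leaving out either KO library, WT replicate 2 or WT replicate 3 (0.0628 to 0.164), without the filter on low genes (0.0574) or with robust variances (0.0792).

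The riser of that list was Mitf itself (0.37 ± 0.09, adjusted p = 0.0247), a factor of both mast cells and macrophages and one of the mast cell markers; it was named after its value was seen. Its call was lost with sex as a covariate (0.168) and when KO replicate 2 or any 1 WT library was left out (0.0575 to 0.0908). Itgb1 (-0.06) and the lysosomal channel gene Mcoln1 (0.05) did not pass.

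Among the genes of lipoproteins outside the cell, Pltp and Lpl fell and Apoe did not pass. Pltp (gene 18830, chromosome 2, 164839518 to 164857711, minus strand), which encodes phospholipid transfer protein, had 6.42 and 3.45 FPKM in KO, against 40.9, 53.1 and 35.2 FPKM in WT. Both KO libraries were far below the lowest WT library, and the log2 change of -2.92 ± 0.24 (SE, limma adjusted p = 0.000426) was the sixth largest fall of all tested genes. The mean was 8.72 times as high in WT as in KO. In KO replicate 3 the level rested on an estimated 90 fragments. The gene shares 495 exonic bases with Ctsa on the other strand, whose reads cannot be told apart without strand. Ctsa was lower in KO too, with 75.4 and 80.3 FPKM in KO, against 104, 119 and 109.5 FPKM in WT (log2 change -0.50 ± 0.08, limma adjusted p = 0.00578; 0.0683 with sex as a covariate).

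Lpl (gene 16956, chromosome 8, 68880491 to 68907448, plus strand), the lipase that frees fatty acids from triglyceride-rich lipoproteins, had 87.1 and 60.1 FPKM in KO, against 183, 241 and 215 FPKM in WT. The groups were well apart, and Lpl changed by -1.54 ± 0.17 on the log2 scale (SE, limma adjusted p = 0.00114). Apoe (gene 11816, chromosome 7, 19696109 to 19699188, minus strand), the lipoprotein ligand that macrophages secrete, had 30.8 and 39.2 FPKM in KO, against 34.8, 59.0 and 33.0 FPKM in WT. The groups overlapped, and WT replicate 2 alone stood high. The log2 change was -0.23 ± 0.24 (SE, limma adjusted p = 0.558), with a sign that turned without WT replicate 2 (0.04). Apoe was the 1 gene of the 10 whose groups were not apart.

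Of 23 further genes of lipoprotein lipase and apolipoproteins, 14 were tested and 6 fell, with a median log2 change of -0.29. Apoc2, the apolipoprotein that activates lipoprotein lipase, had 4.22 and 5.30 FPKM in KO, against 30.7, 31.9 and 23.7 FPKM in WT. Its log2 change of -2.36 ± 0.15 (limma adjusted p = 0.000236) lay between those of Pltp and Trem2, while Apoe, its neighbour in the same gene cluster, did not pass. Apobec1, an RNA-editing enzyme (-1.34 ± 0.11), and Acsl1, which activates fatty acids (-0.89 ± 0.10), also fell, with limma adjusted p of 0.000447 and 0.00139. Lmf1, needed for the maturation of lipoprotein lipase, had a log2 change of -0.66 ± 0.15 (limma adjusted p = 0.0226), lost with sex as a covariate (0.188) and without KO replicate 3 (0.119), WT replicate 2 (0.0716) or WT replicate 3 (0.0693). Apobr (-0.01) and the endothelial lipase gene Lipg (0.06) did not pass.

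Both cholesterol exporters were lower in KO, with a larger log2 change for Abca1 than for Abcg1. Abca1 (gene 11303, chromosome 4, 53030787 to 53159895, minus strand), which loads cholesterol onto lipid-poor apolipoproteins, had the lowest level of the 10 genes, 1.5 and 1.34 FPKM in KO, against 3.36, 5.00 and 3.74 FPKM in WT. Its log2 change was -1.04 ± 0.16 (SE, limma adjusted p = 0.00410) on the log2(FPKM + 1) scale and -1.43 with a pseudocount of 0.1, since the added 1 shrinks the change of so low a gene. The groups did not overlap on either scale.

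Abcg1 (gene 11307, chromosome 17, 31057675 to 31117988, plus strand), which exports cholesterol to high-density lipoprotein, had 16.3 and 15.9 FPKM in KO, against 23.4, 29.5 and 26.4 FPKM in WT. The KO libraries were close together and below all WT libraries, at -0.68 ± 0.10 on the log2 scale (SE, limma adjusted p = 0.00434). Within libraries there were 10.8 and 11.9 FPKM of Abcg1 for each FPKM of Abca1 in KO, against 6.97, 5.90 and 7.06 in WT, so that the ratio of the exporters was higher in both KO libraries than in any WT library.

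Abca1 and Abcg1 are known targets of the LXR oxysterol receptors. Of the LXR genes, Nr1h3 stayed under the filter, with 0 and 0.11 FPKM in KO, against 0.13, 0.41 and 0.41 FPKM in WT, and Nr1h2 had a log2 change of -0.08 (limma adjusted p = 0.574); both were named after their values were seen. Of 24 genes of sterol and lipid nuclear receptors and their targets, 18 were tested and 8 fell, with a median of -0.28. Those that fell included Abca3, a phospholipid transporter (-1.25 ± 0.14), Pparg, a receptor for fatty acid ligands (-0.88 ± 0.17), and Cpt1a, which admits fatty acids to mitochondria (-0.74 ± 0.09), with limma adjusted p between 0.00114 and 0.0103. Pparg did not pass with sex as a covariate (0.0670) or without KO replicate 3 (0.0689). The sterol sensor gene Srebf2 (-0.12) and Lpcat3, another LXR target (0.07), did not pass.

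**Figure D4:**
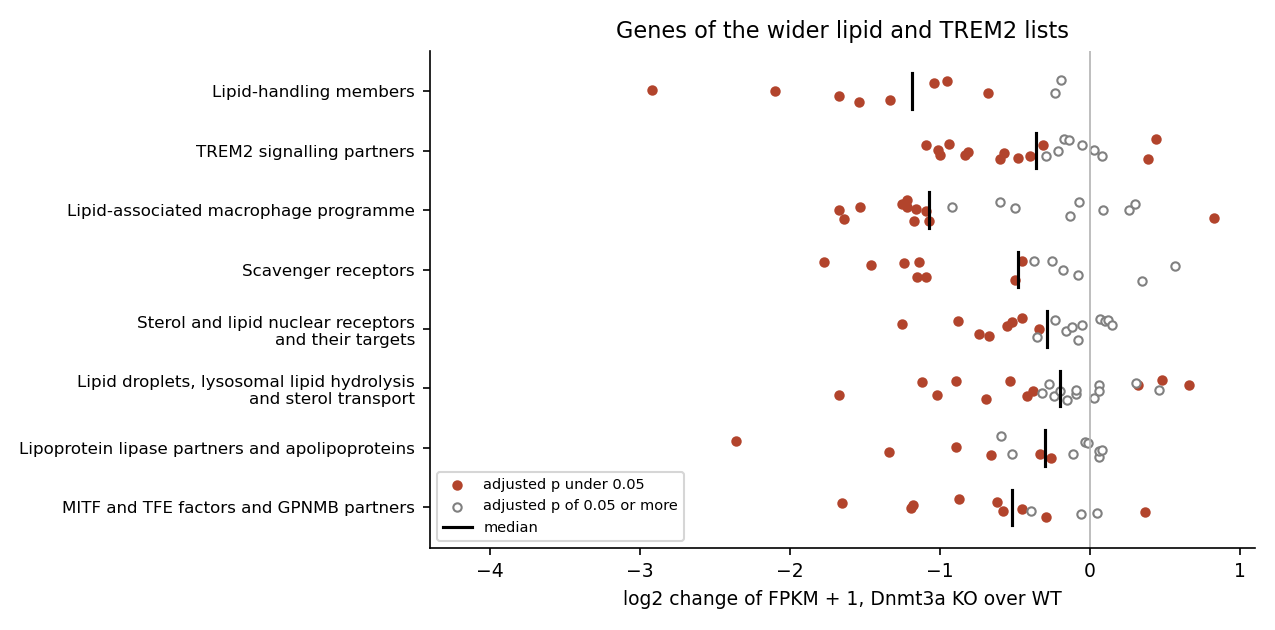
Log2 change of FPKM + 1, Dnmt3a KO over WT, for the 10 lipid-handling genes and for the tested genes of 7 wider lists, one point per gene; filled points passed a limma adjusted p of 0.05 and black bars are list medians. The medians run from -1.19 for the 10 genes and -1.07 for the lipid-associated macrophage programme to -0.20 for lipid droplets and lysosomal hydrolysis.

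More genes of the wider programme of lipid-laden macrophages fell than rose in KO. Of 20 further genes of that programme, 19 were tested, 10 fell and 1 rose, with a median log2 change of -1.07. The largest falls were in Itgax, an integrin subunit (-1.67 ± 0.19), Fabp5, a fatty acid binding protein (-1.64 ± 0.22), Lgmn, a lysosomal endopeptidase (-1.53 ± 0.27), and the lysosomal protease gene Ctsb (-1.25 ± 0.18), with limma adjusted p between 0.00134 and 0.00706. Lgmn had an adjusted p of 0.0572 without KO replicate 3. The riser, named after its value was seen, was Cst7, the inhibitor of lysosomal proteases cystatin F, with 293 and 290.4 FPKM in KO, against 159, 156 and 175 FPKM in WT (0.83 ± 0.08, limma adjusted p = 0.000662). The most abundant members of the programme, the chemokine gene Ccl6 (-0.07) and the protease gene Ctsd (0.09), did not pass.

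Of 26 genes of lipid droplets, lysosomal lipid hydrolysis and sterol transport, 23 were tested, 8 fell and 3 rose, with a median log2 change of -0.20. Psap, the precursor of the saposins that help lysosomal enzymes reach lipid, had 836 and 664 FPKM in KO, against 2169, 2648 and 2333 FPKM in WT (-1.67 ± 0.14, limma adjusted p = 0.000428). Dgat2, which makes triglyceride (-1.12 ± 0.15), Lipa, the lysosomal acid lipase (-1.02 ± 0.15), and Plin2, the droplet coat protein (-0.89 ± 0.16), also fell, with limma adjusted p between 0.00264 and 0.00839. Plin2 did not pass with sex as a covariate (0.0623) or without KO replicate 3 (0.0530). The risers, named after their values were seen, were Hilpda, a droplet protein that inhibits triglyceride breakdown (0.66 ± 0.09), the sterol-binding Osbpl8 (0.48 ± 0.08), and Smpd1, acid sphingomyelinase (0.32 ± 0.07, limma adjusted p = 0.0206). Smpd1 did not pass with sex as a covariate (0.138) or when any 1 library other than KO replicate 2 was left out (0.0592 to 0.0807). The lysosomal sterol-binding gene Npc2 (-0.09) did not pass.

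Across these 7 lists, 120 of 146 genes were tested, 59 fell and 7 rose, against 13% and 9.08% of all tested genes. With sex as a covariate 38 fell and 4 rose, and 4 rose without WT replicate 2 or without WT replicate 3.

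The lipid genes did not all move by the same amount as macrophage markers. Each gene was set, in each library, against the mean log2(FPKM + 1) of the 20 markers, which was 4.95 and 4.73 in KO and 6.06, 6.16 and 5.97 in WT, a difference of -1.22. Trem2 stood at -0.16 and -0.41 relative to the markers in KO, against 0.47, 0.67 and 0.64 in WT, a further fall of 0.87. Pltp stood at -2.06 and -2.57 in KO, against -0.67, -0.40 and -0.79 in WT, and Msr1 at -1.33 and -1.13 in KO, against -0.61, -0.79 and -0.94 in WT. The KO libraries of these 3 genes lay below every WT library relative to the marker mean. The single markers ranged from -1.93 for Mpeg1 to 1.41 for Cx3cr1 in log2 change, with a median of -1.53. Against the median of the markers, each centred on its own mean, an alternative chosen after seeing the data, the difference was -1.50 for Pltp and -0.68 for Trem2, with the groups apart, and -0.26 for Msr1, with the groups overlapping. On the log2(FPKM + 1) scale Pltp and Trem2 had lower log2 changes than each of the 20 markers, whereas 7 markers were lower than Msr1. The added 1 shrinks the change of low markers such as Aif1, with 4.09 and 1.35 FPKM in KO (log2 change -1.93). Aif1 averaged 2.72 FPKM in KO and 12.2 FPKM in WT, so its order against Trem2 depends on the added 1.

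Abcg1, Apoe and Tyrobp went the other way and were higher relative to the markers in both KO libraries than in any WT library. The differences between the group means were 0.54 for Abcg1, 0.99 for Apoe and 1.03 for Tyrobp on the log2 scale. Against the marker median these 3 remained apart, at 0.74, 1.19 and 1.22. Gpnmb (-0.11), Lpl (-0.32), Cd36 (0.27) and Abca1 (0.18) overlapped between the groups relative to the marker mean. Against the marker median Cd36 (0.46) and Abca1 (0.37) were higher in both KO libraries than in any WT library, while Gpnmb (0.08) and Lpl (-0.12) overlapped. With 2 and 3 libraries there are 10 splits, and the smallest two-sided p of an exact permutation test is 0.2, the value found for each of the 6 genes whose groups were apart relative to the marker mean.

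**Figure D5:**
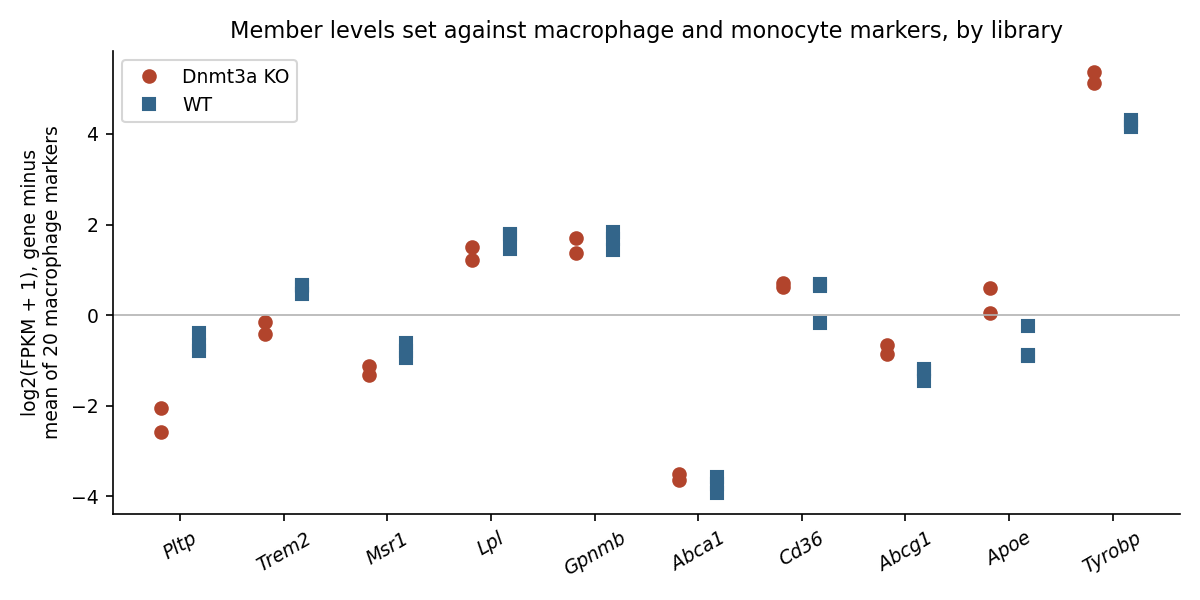
Level of each lipid-handling gene minus the mean of 20 macrophage and monocyte markers, as a difference of log2(FPKM + 1), in each Dnmt3a KO library (circles, left of each pair) and each WT library (squares, right). Relative to this mean Pltp, Trem2 and Msr1 are lower in KO and Abcg1, Apoe and Tyrobp are higher; against the marker median Msr1 overlaps between the groups, at -0.26.

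The genes whose pattern over the 5 libraries was nearest to that of Trem2, by distance between centred log2(FPKM + 1) profiles, were Ctss, Clec4a3, Wfdc17, Sdc3 and Clec4b1, at distances of 0.16 to 0.25. Ctss, the lysosomal protease cathepsin S, had 225 and 138 FPKM in KO, against 703, 884 and 747 FPKM in WT. Clec4a3 and Clec4b1 encode C-type lectin receptors and Sdc3 a heparan sulfate proteoglycan. Among the lipid genes Lpl, at a distance of 0.62, was the nearest to Trem2 and ranked 64 among all tested genes, followed by Msr1 at 0.67. Tyrobp was at 2.12 and Apoe at 2.17. The distances describe these 5 libraries and include the difference between genotypes.

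The authors' deposited table also holds an adjusted p per gene from their own comparison, whose test the sources used here do not state. In the authors' deposited table it was under 0.05 for 5 of the 10 genes, Pltp, Msr1, Trem2, Abca1 and Abcg1, and for 6.09% of all rows. It was 0.101 for Gpnmb, 0.101 for Lpl, 0.152 for Cd36, 0.420 for Tyrobp and 1 for Apoe in the authors' deposited table.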

How the data were processed

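The members and gene lists were chosen with earlier results of these data known. The authors deposited 1 table of FPKM per gene and library, per the file headers, together with a signed fold as a score, p-values and adjusted p-values of their own comparison, and log values of that comparison as a score, which were not used. HISAT, StringTie 1.2.1, edgeR and the build mm10 are named, without role or order, in the submitters' processing notes. The sources used here do not state strandedness, annotation or counting. KO replicate 1 was not analysed here. Whether replicates came from separate animals is not given, so a p-value reflects only how these samples vary, in part perhaps for technical reasons. Libraries of a group differed by a median absolute log2 difference of 0.158 in KO and 0.0937 to 0.109 in WT.

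Depth was estimated from values of 0.05 to 0.3 FPKM in genes with 1 RefSeq transcript, which times length should be multiples of 1 fragment; 51.1% to 66.1% of those of about 1 to 5 fragments lay within 0.15 of a whole number, against 30% if spread evenly. The estimate covers counting precision only.

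Genes were tested with limma 3.58.1 in R 4.3.3 if at least 2 libraries reached 1 FPKM. The model used log2(FPKM + 1) and genotype alone, a mean-variance trend and 3 residual degrees of freedom, and Benjamini-Hochberg adjustment covered every tested gene. Fold changes are KO over WT and understate the change of low genes. The procedure was tested on simulated data. From each list, up to 4 genes of largest change among those that passed and up to 2 of highest level among those that did not are named, and risers outside that rule are marked as such; some genes that the rule names are not reported here. Alternatives were a pseudocount of 0.1, no filter or one at 5 FPKM, median-of-ratios and upper-quartile scaling, no trend, robust variances, sex as a covariate, a replicate block, and leaving out each library. A median of centred macrophage markers was added after seeing the data. Gene positions are from GENCODE vM21 and promoter sequences from RefSeq on GRCm38.p6. Replicate numbers 2 and 3 occur in both groups, but nothing in the labels ties them to a shared animal or day.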

Additional observations from a re-analysis of the deposited data

How the results depend on the processing

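Of the 10 lipid genes, Pltp, Trem2, Msr1, Lpl, Gpnmb, Abca1 and Abcg1 kept their direction and their call under every alternative that tested them; Abca1 was not tested with a filter at 5 FPKM. Tyrobp and Apoe passed under none. Cd36 lost its call without the filter on low genes (log2 change -0.95), with median-of-ratios (-0.90) or upper-quartile scaling (-0.89), without the mean-variance trend (-0.95), with robust variances (-0.95) and with sex as a covariate (-0.39), and it ranged from -1.23 to -0.77 when 1 library was left out. Apoe ranged from -0.39 to 0.04 when 1 library was left out. With sex as a covariate, 792 of all tested genes were lower and 520 higher, and 38 list genes were lower and 4 higher. Leaving out 1 library gave 944 to 1681 genes lower and 679 to 978 higher in all, and 50 to 61 list genes lower and 4 to 7 higher. Relative to macrophage markers, the difference for Abca1 was -0.13 with a pseudocount of 0.1, against 0.18, and that for Tyrobp ranged from 0.91 to 1.15 when 1 library was left out. Against the median of centred markers, chosen after seeing the data, the difference was -0.68 for Trem2, 1.22 for Tyrobp, -0.26 for Msr1, 0.37 for Abca1, 0.74 for Abcg1 and -0.12 for Lpl. Upper-quartile scaling moved the median log2 change of all tested genes to 0.01, against -0.04.

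With the replicate number as a block, over replicates 2 and 3, all 8 lipid genes that fell were called (Trem2 log2 change -2.16), and 1197 genes were lower and 884 higher in all. Nothing in the labels shows that a shared number marks a pair. Deviations of same-numbered libraries correlated at -0.0292 for number 2 and 0.0985 for number 3 across genes, but with 2 KO libraries centred on their mean the KO deviations mirror each other, so this check cannot decide the pairing. Of the named genes, Mitf and Smpd1 were not called with the block (limma adjusted p = 0.0527 and 0.0729), and Colec12 was (0.0107).

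Among the list genes reported here, signs turned only for genes that had not passed. They were Apobr (0.03 and 0.05 with median-of-ratios and upper-quartile scaling, 0.00 with the replicate block, -0.15 to 0.12 without 1 library), Grb2 (0.00 and 0.02 with the same scalings), Itgb1 (0.01 with upper-quartile scaling, 0.04 with sex, -0.13 to 0.01 without 1 library) and Adam10 (-0.01 with the block, -0.01 to 0.07 without 1 library). With sex as a covariate, Ccl6 was at 0.08 and Colec12 at 0.21. Without 1 library, Lipg ranged from -0.04 to 0.16 and Mcoln1 from -0.02 to 0.13. The cause was not tested for any of these.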

Other observations

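Several genes of lipid handling in other macrophages were in the table but below the filter. The scavenger receptor gene Marco had 0.43 and 0.07 FPKM in KO, against 0.20, 0.49 and 0.49 FPKM in WT. Apoc1, of the same gene cluster as Apoe and Apoc2, had 0.10 and 0.17 FPKM in KO, against 0.33, 0 and 1.08 FPKM in WT. Ch25h, which makes the oxysterol 25-hydroxycholesterol, stayed below 0.5 FPKM in every library.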
